A study of Arabidopsis thaliana with 4 samples.

Results

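The 5 nuclear genes described here make plastid pigments, and are 5 of the genes behind 22810 probe sets on the array. They are PORB (AT4G27440), GSA1 (AT5G63570) and HEMA2 (AT1G09940) of the chlorophyll and heme pathway, and LYC (AT3G10230) and Z-ISO (AT1G10830) of carotenoid synthesis. They were chosen by name and locus, with earlier results of these data known. Each had 1 probe set, and all 5 were among the 13604 probe sets tested. Total RNA came from whole Arabidopsis thaliana plants without special treatment, on MS agar in long days. The 2 ppi2 samples were 20 days old and the 2 wild-type samples 10 days old, so genotype and age changed together and their effects cannot be told apart. The ppi2 mutation disrupts TOC159, a receptor through which precursor proteins enter the chloroplast, and homozygous plants are albino.

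Chlorophyll and heme are tetrapyrroles made in the plastid by enzymes that nuclear genes encode and that are imported as precursors. The pathway starts from glutamate bound to its transfer RNA, which glutamyl-tRNA reductase (HEMA) and glutamate-1-semialdehyde aminomutase (GSA) turn into 5-aminolevulinate, the common precursor. After protoporphyrin IX the path forks into an iron branch to heme and a magnesium branch to chlorophyll, where the light-dependent protochlorophyllide oxidoreductases (POR) act late. Carotenoids are built from plastid isoprenoids, with Z-ISO isomerising a poly-cis intermediate ahead of lycopene and lycopene beta-cyclase (LYC) closing the rings that lead to beta-carotene. They protect chlorophyll from excess light and supply the precursors of abscisic acid.

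Values were MAS5 signals, a brightness per probe set on a linear scale in arbitrary units, and a signal cannot be set against that of another probe set. The arrays had similar median signals, from 193 to 213. The arrays did not sort by label. Deviations of same-numbered arrays from their group means ran in opposite directions across the 13604 probe sets (r = -0.818 over probe sets, which are no replicates), and TOC159 had no named probe set that could check the labels. Arrays are therefore named only as they are labelled, signals are given as replicate 1 then replicate 2 within a label, and the labelled comparisons are given also without single arrays. A lower signal in RNA of whole plants can come from fewer cells of a type or from less RNA per cell, which cannot be told apart. Of the leaf photosynthesis markers 5 of 19 had an assigned probe set, and their summed signal ranged from 30434 (replicate 1) to 108460 in ppi2 and from 29622 (replicate 2) to 118690 in wild type. High and low arrays were those of PORB below, and the part of these markers in the pigment results was not tested. Root markers (2 of 10 with a probe set) summed to 194 and 234 in ppi2 and 249.6 and 184 in wild type, the 1 epidermal marker of 9 (FAMA) read 310.4 and 249 in ppi2 and 174 and 191 in wild type, and for the 6 seed and 6 flower markers no level was analysed here.

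The first step to 5-aminolevulinate was measured by HEMA2. Glutamyl-tRNA reductase has several genes in Arabidopsis, of which HEMA1 serves mainly green tissue and HEMA2 is known mainly from roots and flowers. HEMA2 read 1059 and 370.0 in ppi2 (replicates 1 and 2) and 395 and 796 in wild type. The labelled ppi2 replicate 1 and wild type replicate 2 arrays were high, the other 2 arrays low, and the ppi2 values enclosed those of wild type. Its group means were 714 ± 487 (SD, n = 2) in ppi2 and 596 ± 283 (SD, n = 2) in wild type. The log2 difference of 0.16 (limma, SE 0.64, 95% interval -1.54 to 1.86, adjusted p = 1.0) did not pass the threshold of 0.05. On the log2 scale it became -0.59 without ppi2 replicate 1 and -0.34 without wild type replicate 1, and 0.91 and 0.65 without ppi2 replicate 2 and wild type replicate 2.

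GSA1, an aminomutase gene of the next step, read 1003 and 1459.5 in ppi2 and 1520.5 and 1103 in wild type. Here the array order was turned round, since the arrays labelled ppi2 replicate 2 and wild type replicate 1 were the higher pair, and the groups again overlapped. The means were 1231 ± 323 (SD, n = 2) and 1312 ± 295 (SD, n = 2). The log2 difference was -0.10 (limma, SE 0.35, 95% interval -1.03 to 0.83, adjusted p = 1.0), and the sign turned to 0.17 without ppi2 replicate 1 and 0.13 without wild type replicate 1. HEMA2 and GSA1 catalyse successive steps, yet the array that was highest for HEMA2 was the lowest for GSA1.

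PORB, the oxidoreductase that makes chlorophyllide in light, varied most among the 5 genes. Its signal was 2894 and 19755 in ppi2 and 26437 and 2516 in wild type. The highest array was thus 10.5 times the lowest, and both extremes carried the wild-type label. The means were 11324 ± 11923 (SD, n = 2) in ppi2 and 14477 ± 16914 (SD, n = 2) in wild type, so the spread within each group exceeded its mean. The log2 difference between the labelled groups was -0.11 (limma, SE 1.47, adjusted p = 1.0). Its 95% interval, from -3.98 to 3.76, allows differences of several-fold in either direction. Without ppi2 replicate 1 the log2 difference was 1.27 and without wild type replicate 1 it was 1.59, while it was -1.49 without ppi2 replicate 2 and -1.80 without wild type replicate 2.

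Of the carotenoid genes, LYC read 620.0 and 1036 in ppi2 and 971 and 583 in wild type, in a pattern of high and low arrays like that of GSA1 and PORB. The highest LYC array was 1.78 times the lowest, a narrower range than those of PORB and HEMA2 (2.86-fold) and a wider one than that of GSA1 (1.52-fold). The means were 828 ± 294 (SD, n = 2) and 777 ± 274 (SD, n = 2). The labelled log2 difference was 0.09 (limma, SE 0.43, 95% interval -1.04 to 1.22, adjusted p = 1.0). It turned to -0.28 without ppi2 replicate 2 and to -0.27 without wild type replicate 2.

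Z-ISO, the isomerase acting upstream of LYC, read 663 and 527 in ppi2 and 536 and 706 in wild type. Its high and low arrays were those of HEMA2 and opposite to those of LYC, and the whole range was 1.34-fold, the narrowest of the 5. The means were 595 ± 95.9 (SD, n = 2) and 621 ± 120 (SD, n = 2). The labelled log2 difference of -0.06 (limma, SE 0.30, 95% interval -0.85 to 0.74, adjusted p = 1.0) turned to 0.11 without ppi2 replicate 2 and 0.14 without wild type replicate 2, and to 0.0021 when each array was centred on its median.

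**Figure D1:**
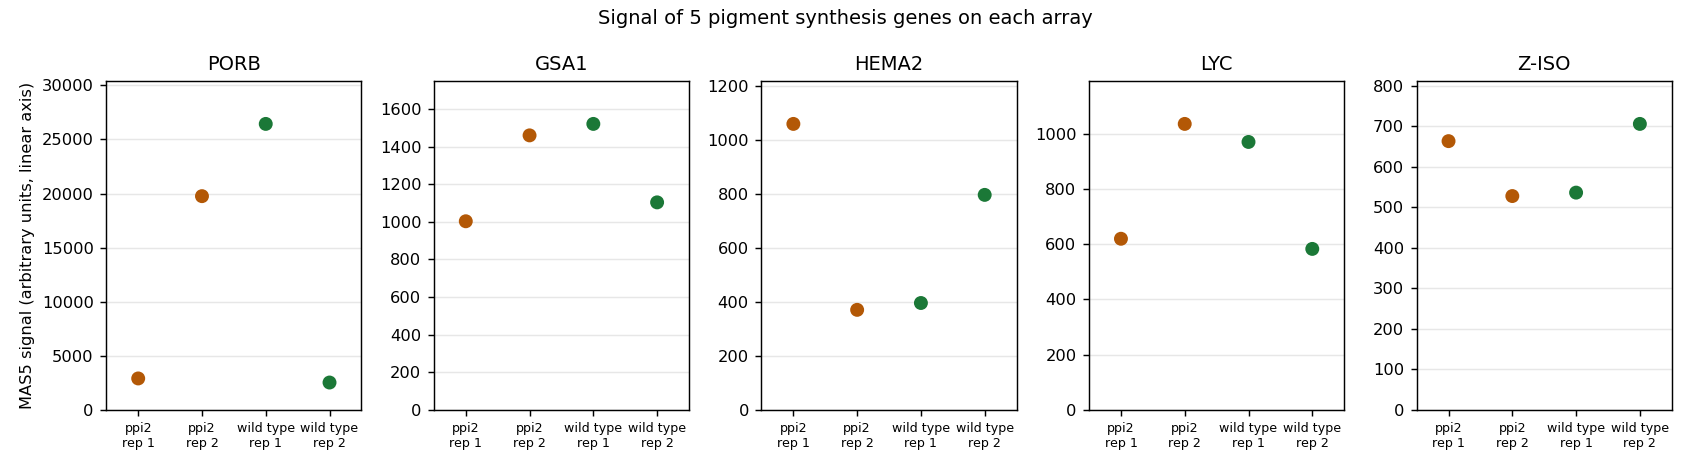
MAS5 signal in arbitrary units (vertical linear axes from 0) of each gene on the 4 arrays, 1 point per array, brown for ppi2 and green for wild type. PORB, GSA1 and LYC were higher on ppi2 replicate 2 and wild type replicate 1, HEMA2 and Z-ISO on ppi2 replicate 1 and wild type replicate 2, and the groups overlap in every panel.

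Among the 5 genes, 0 passed the test between the labelled groups, against 0% of all 13604 probe sets (limma, Benjamini-Hochberg adjusted p under 0.05). Before adjustment 8 probe sets in all had p under 0.05, and none of the 5, whose unadjusted p lay between 0.79 and 0.94 (limma). The 8 are far fewer than a share of 0.05 of the 13604, which would be expected if no probe set differed. High p-values were thus not particular to the 5. The labelled values overlapped for all 5, while 6.12% of all tested probe sets had both ppi2 arrays above both wild-type arrays and 8.14% had both below. The median of the 5 log2 differences was -0.06, beside -0.01 over all tested probe sets. These intervals do not show that ppi2 and wild type were alike in pigment gene expression. The residual spread of this test holds the difference between arrays of one label, and that spread was 2.19 for PORB, 0.90 for HEMA2, 0.52 for LYC, 0.35 for GSA1 and 0.25 for Z-ISO (pooled SD within groups, log2 scale).

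**Figure D2:**
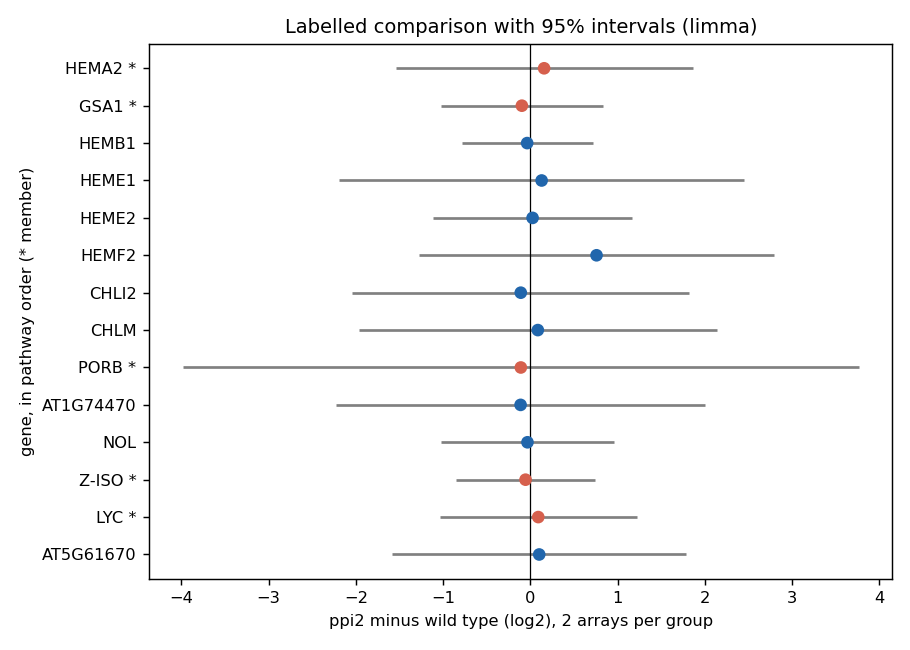
Log2 difference of ppi2 minus wild type (points, 2 arrays per group) with its 95% interval from limma (bars) for the 14 tested pigment genes in pathway order, members in red and starred. All 14 intervals include 0, and that of PORB is the widest, from -3.98 to 3.76.

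The spread took the same form in all 5 genes, seen by comparing the arrays of one replicate number. Within number 1, the log2 difference of the array labelled ppi2 from that labelled wild type was -3.19 for PORB, -0.60 for GSA1 and -0.64 for LYC, whereas it was 1.40 for HEMA2 and 0.30 for Z-ISO. Within number 2 every sign was the opposite, with PORB at 2.97, GSA1 at 0.40, LYC at 0.82, HEMA2 at -1.09 and Z-ISO at -0.41. Lower then higher described 3 of the 5 genes, beside 36.8% of all tested probe sets, and higher then lower described 2, beside 41.1%. At 2-fold in both numbers, PORB was 1 gene lower then higher (7.14% of all) and HEMA2 1 gene higher then lower (5.76% of all). These values rest on 1 array per arm and have no error and no p-value.

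Within each replicate number taken alone, 1 of the 5 genes was at least 2-fold lower and 1 at least 2-fold higher. Of all tested probe sets, 10.9% were at least 2-fold lower and 10.1% at least 2-fold higher on the array labelled ppi2 in number 1, and 8.67% were lower and 9.59% higher in number 2. The medians of the 5 were -0.60 and 0.40 in numbers 1 and 2, beside 0.02 and -0.05 over all tested probe sets. For a set of 5 with both directions in it, these medians describe GSA1 and no common shift.

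**Figure D3:**
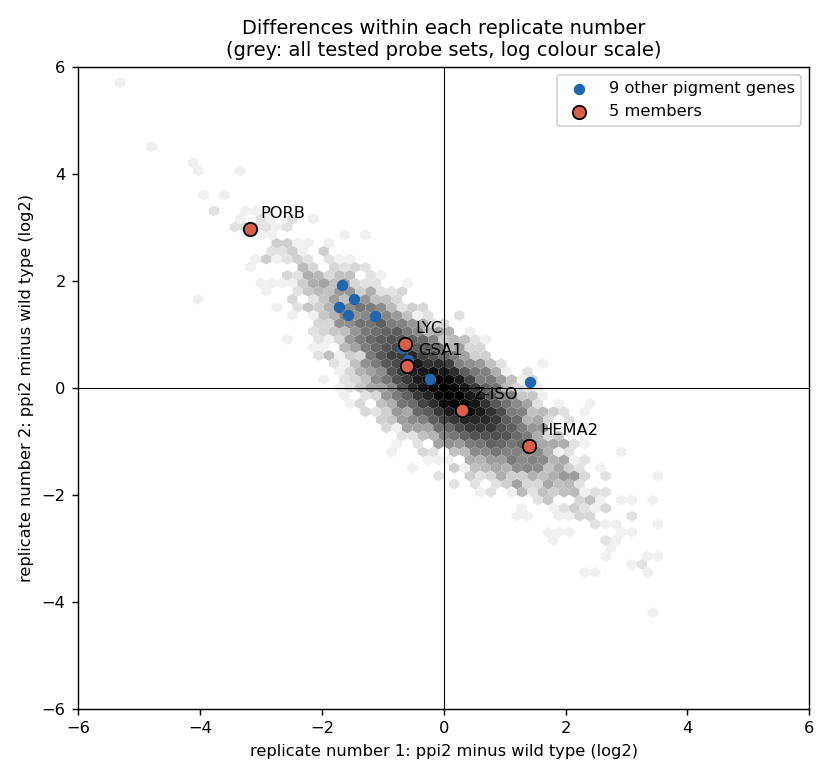
Log2 difference of ppi2 minus wild type in replicate number 1 (horizontal) against that in number 2 (vertical), with grey hexagons for the 13604 tested probe sets, red points for the 5 genes and blue points for the 9 other pigment genes. PORB lies at -3.19 and 2.97 in the upper left and HEMA2 at 1.40 and -1.09 in the lower right, each along the band of all probe sets.

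The 4 array values of a gene hold 3 independent contrasts, namely the label, the replicate number and the difference between the within-number differences. The label took 0.13% of the sum of squares of PORB on the log2 scale, 1.5% of that of HEMA2 and of LYC, 2.3% of that of Z-ISO and 3.7% of that of GSA1. The median over all tested probe sets was 7.5%. The third contrast took 98.9% for PORB, 98.5% for LYC, 96.8% for Z-ISO, 95.7% for GSA1 and 94.7% for HEMA2, beside a median of 73.1%. Between arrays of unlike label and unlike number, each gene differed less than between its arrays of one number. The arrays labelled ppi2 replicate 1 and wild type replicate 2 differed by 0.20 in PORB, 0.41 in HEMA2, -0.14 in GSA1, 0.09 in LYC and -0.09 in Z-ISO on the log2 scale, and those labelled ppi2 replicate 2 and wild type replicate 1 by -0.42, -0.09, -0.06, 0.09 and -0.02 in that order. Both pairs had PORB as one of the largest differences, with opposite signs.

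The hybridisation controls, which are spiked into the mixture put on every array, had medians of 840.0 and 1669 in ppi2 and 1514 and 1106 in wild type. They were thus lower on the arrays where PORB, GSA1 and LYC were lower, and where HEMA2 and Z-ISO were higher. The poly-A spike-in controls followed the replicate number instead, with medians of 1575 and 477 against 2386 and 481. The part of either in the pigment results was not tested.

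Around the 5 genes, the lists of pigment pathway genes held 95 genes, of which 17 had an assigned probe set and 14 were tested. The lists, too, were chosen with earlier results of these data known. Of these 14, 0 passed between the labelled groups. Besides the 5, the 9 others had a median labelled log2 difference of 0.03. Within number 1, 6 of the 14 were at least 2-fold lower on the array labelled ppi2 (10.9% of all tested probe sets) and 2 higher (10.1%). Within number 2, 6 were at least 2-fold higher (9.59% of all) and 1 lower (8.67%). No gene of the iron branch to heme (8 listed), of carotenoid cleavage (9 listed) or of the isoprenoid precursors (10 listed) was analysed here, so HEMA2 and GSA1 stand for heme only through the steps that heme shares with chlorophyll.

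Of the steps from 5-aminolevulinate to protoporphyrin IX, 4 of 10 genes were tested. HEMB1, a 5-aminolevulinate dehydratase, was the steadiest, with 3172 and 3384 in ppi2 and 3716 and 3042 in wild type. HEME1 and HEME2 are both uroporphyrinogen decarboxylases. HEME1 read 854 and 2951 in ppi2 against 2725 and 772 in wild type, a 3.82-fold range, and HEME2 read 699.6 and 1334 against 1131 and 797, a 1.91-fold range, with the high arrays shared with PORB. HEMF2 was dim, close to the signal minimum of 124, and read 131 and 179 against 44.0 and 166. Its log2 differences were 1.41 and 0.10 within numbers 1 and 2, the only one of the 14 with the same sign in both. Its labelled log2 difference was 0.76 (limma, SE 0.77, adjusted p = 1.0).

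All 4 tested genes of 14 in the magnesium branch, PORB included, were at least 2-fold lower within number 1 and at least 2-fold higher within number 2 on the array labelled ppi2. Of all tested probe sets 7.14% did so, and of the 5 tested leaf photosynthesis markers 4 did. The pattern was not confined to this branch, since 6 of the 14 tested pigment genes had it, HEME1 and AT5G61670 among them. The median log2 differences were -1.65 and 1.58 for the 4 genes and -2.07 and 1.80 for the 5 markers, and whether the branch differs from the markers was not tested. CHLI2, a subunit of magnesium chelatase, read 326 and 985 against 989.9 and 379. CHLM, which methylates magnesium protoporphyrin, read 3014 and 8731 against 8432 and 2772. AT1G74470, a geranylgeranyl reductase that completes the phytol tail of chlorophyll, read 6485 and 16934 against 21452 and 5983. The fold range over the arrays was 3.04, 3.15 and 3.59 for these, beside 10.5 for PORB. Labelled log2 differences of the 4 lay between -0.11 and 0.09, and none passed (limma). NOL, a chlorophyll b reductase and the 1 tested gene of 9 in chlorophyll breakdown, read 497 and 852 against 752 and 590.4, with the same high arrays.

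In carotenoid synthesis 3 of 15 genes were tested, LYC, Z-ISO and AT5G61670, a gene that the annotation used leaves without a symbol. AT5G61670 read 849 and 1758 against 1866 and 694, with log2 differences of -1.13 and 1.33 within numbers 1 and 2. LYC and AT5G61670 were lower then higher, and Z-ISO was higher then lower. Across the 14 tested genes 11 were lower then higher, beside 36.8% of all tested probe sets and all 5 tested leaf photosynthesis markers. HEMA2 and Z-ISO, 2 of the 14, were higher then lower, beside 41.1% of all. The other 3 listed genes with a probe set were too dim to test, with HEMA3 between 5.26 and 26.5, HEMB2 between 5.91 and 70.7 and the regulator HYH between 5.55 and 83.4 on the 4 arrays.

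**Figure D4:**
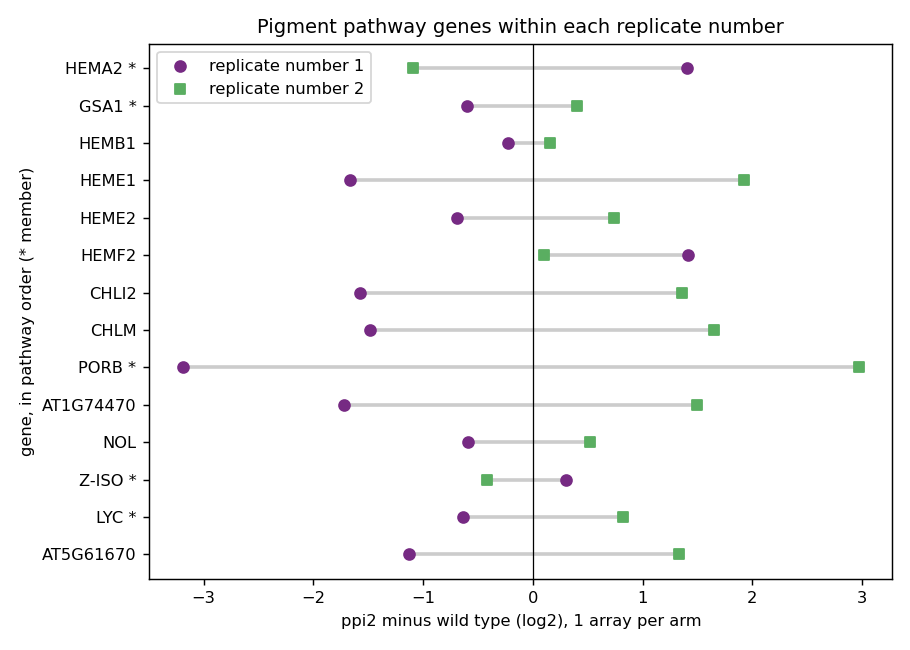
Log2 difference of ppi2 minus wild type within replicate number 1 (purple circles) and number 2 (green squares), 1 array per arm, for the 14 tested pigment genes from the first step at the top to carotenoids at the bottom, members starred. Circles lie left of 0 and squares right of it for 11 genes, the reverse for HEMA2 and Z-ISO, and both right of 0 for HEMF2.

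Likeness to each gene was measured by the root mean square difference of log2 values centred per gene over the 4 arrays, among 7213 other tested probe sets with a matched gene. For GSA1 the nearest was AT3G24740, at 0.0028, followed by SLY1, an F-box protein of gibberellin signalling, at 0.015, and bZIP52 at 0.017. AT3G24740 read 319.8 and 469 in ppi2 and 489.7 and 354 in wild type. For LYC the nearest were AT4G15010 at 0.014, AT2G25950 at 0.026 and AT5G16010 at 0.027. For Z-ISO they were AT4G39520 at 0.012, AT1G06840 at 0.014 and HSA32 at 0.015. With 4 arrays such likeness is common, since 228 probe sets lay within 0.1 of GSA1, 132 of LYC and 405 of Z-ISO.

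PORB and HEMA2, which had the widest ranges of the 5, had fewer close matches, with 0 and 13 probe sets within 0.1. The distance is not scaled to a gene's range, so a fixed cut-off tends to hold fewer neighbours of a widely varying gene. The counts therefore do not show a lack of genes with the same pattern. The 3 nearest to PORB had r of 0.996 to 0.998 with it over the 4 arrays. The nearest to PORB were AT2G21045 at 0.14, CaS, a calcium-sensing protein of thylakoids, at 0.14 and AT4G31530 at 0.15. CaS read 629 and 4313 in ppi2 and 4841 and 601 in wild type. The nearest to HEMA2 were AT2G15690 at 0.070, AT1G09300 at 0.074 and AT4G02400 at 0.074. Among the 5 themselves, GSA1 and LYC were the closest pair, at 0.15, and PORB and HEMA2 the farthest apart, at 2.17.

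The 5 genes lie on chromosomes 1 (HEMA2 and Z-ISO), 3 (LYC), 4 (PORB) and 5 (GSA1), by the gene table. The genes on either side of PORB in its order were both tested and varied far less than PORB. AT4G27435 read 269 and 258 against 186 and 338, and AT4G27450 read 5922 and 7689.6 against 4924 and 5316. Before GSA1, FACT read 317 and 522 against 668 and 294, high on the same arrays as GSA1. Both were lower within number 1 and higher within number 2, as were 36.8% of all tested probe sets. No neighbour of HEMA2, LYC or Z-ISO was tested.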

How the data were processed

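RNA of 4 samples was hybridised to single-colour Affymetrix arrays. The deposited values are linear signal intensities per probe set. MAS5 is named in the submitters' processing notes, without version or scaling target. The trimmed mean was 500.0 on every array, so no scaling was added. Probe sets were named through a platform annotation (13513 with 1 gene, 503 with several) joined by gene identifier to RefSeq names of TAIR10.1 (13436 matched).

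Left out were 64 control probe sets, 157 dimmer probe sets of genes with several, and those whose mean signal lay below 124 (40th percentile). Log2 was taken after adding 7.99, the 10th percentile of signals, which understates log2 differences of dim genes. The model was limma 3.58.1 (R 4.3.3; lmFit, then eBayes with a mean-variance trend), with group as its single term, two-sided p adjusted by Benjamini-Hochberg over 13604 probe sets, and 2 residual plus 2.59 prior degrees of freedom. An exact permutation test of 2 against 2 arrays cannot go below 0.333, so none was used. The fit was tested on simulated data. The noise there was independent between arrays, unlike the deviations found here, so that test does not cover arrays like these. The labels speak of biological replicates but not of separate cultures, so a p-value here reflects spread among these 4 arrays, which may be technical, and their number limits the precision.

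Members and lists were chosen with earlier results of these data known. Genes were named by rule: the 5 members, up to 6 tested genes per list by mean signal, and the 3 nearest genes per member. Chromosome neighbours and dim genes were added after their values were seen. Same-numbered arrays deviated in opposite directions (r = -0.818), and the model did not pair arrays by number. The poly-A spike-in controls did follow the number, and whether same-numbered arrays shared a preparation was not tested. Alternatives were other scalings, pseudocounts, filters and variance models, a replicate block and leaving out arrays. Figures were drawn with matplotlib 3.10.9.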

Additional observations from a re-analysis of the deposited data

How the results depend on the processing

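No alternative brought a probe set past the threshold (0 in each limma fit): quantile normalization, median centring, other pseudocounts and filters, no variance trend, the replicate number as a block and each array left out. With the crossed numbers as a block, added after the data were seen, it was also 0. At an unadjusted p under 0.05 these fits held 0 to 554 probe sets. Each group held 1 array of each number, so the replicate block could not change a labelled difference (PORB stayed at -0.11). It changed no call, and the part of the number in these results was not tested. Of 100 recomputed values of the 5 genes, 11 changed sign, all between the labelled groups and none within a replicate number. The 40 values within a number were recomputed only with other scalings and pseudocounts, since no array could be left out there. Other filters, no variance trend and the block could not change a labelled difference of the 5, yet those values are among the 100. The counts are thus not like for like, and do not show that differences within a number are steadier. Leaving out 1 array, which assumes that a lone array varies like the other group, gave log2 differences from -1.804 to 1.585 for PORB, -0.3668 to 0.1713 for GSA1, -0.5911 to 0.9057 for HEMA2, -0.2767 to 0.4572 for LYC and -0.2514 to 0.1402 for Z-ISO. The sign followed which array was left out. Quantile normalization gave PORB -2.83 and 2.75 and HEMA2 1.37 and -1.01 within numbers 1 and 2. Median centring, which shifts every difference by 0.13 within number 1, -0.02 within number 2 and 0.06 between the labelled groups, gave Z-ISO 0.002098. Pigment genes at least 2-fold higher within number 1 fell from 2 to 1 with a pseudocount of the 25th percentile, and to 1 with a 60th-percentile filter, which removes HEMF2. Those at least 2-fold lower within number 2 rose from 1 to 2 with no filter, since dim genes enter. No filter also raised those at least 2-fold lower within number 1 from 6 to 8 and those higher within number 2 from 6 to 7. Median centring lowered those at least 2-fold lower within number 1 from 6 to 5. Correlation in place of the root mean square shared 1 of the 3 nearest genes for GSA1, HEMA2 and LYC and 0 for PORB and Z-ISO. Signal near background, without detection calls, limits what HEMF2, HEMA3, HEMB2, HYH and the root markers show.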
